A study of Mus musculus with 40 samples.

Results

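Collagen chains are the subunits of the collagen triple helix, and each chain is encoded by a gene of its own. Fibrillar collagens such as types I, III and V build the banded fibrils of connective tissue, type IV collagen forms the sheet-like network of basement membranes, and the other types link, anchor or decorate these structures. In mammary tumors, fibrillar chains are known mainly as products of fibroblasts, whereas basement membrane chains are also made by epithelial, endothelial and mural cells. The 35 collagen chain genes described here were all genes of the expression table whose symbol consists of Col, a number, the letter a and a number, out of 14318 genes listed. There were 10 fibrillar chains, 6 basement membrane chains and 19 other chains, of which 6 form the beaded filaments of type VI collagen, 5 belong to fibril-associated collagens and 8 are anchoring, network-forming, transmembrane or further chains.

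RNA was sequenced from primary tumors of wild-type (WT) female BALB/c mice at 5 w post-inoculation (p.i.), which had received 4T1 or 66cl4 mouse mammary tumor cells through the milk duct while lactating. Both cell lines carried luciferase, and more 66cl4 than 4T1 cells had been inoculated, so that cell line and inoculum cannot be told apart in a comparison of the models. Within each model the mice were untreated, or received intraperitoneal anti-PD-1 (clone RMP1-14, 200 µg per mouse), 1 mg chitin per mouse, or chitin + anti-PD-1. The untreated mice were the comparison group, the ages of the mice are not in the labels, and tumors were analysed one by one. Each of the 8 groups had 5 tumors, apart from untreated 4T1 with 4, because tumor 3 of that group was not analysed here, which gave 19 4T1 and 20 66cl4 tumors.

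The deposited values were on a log2-like scale made by a variance stabilizing transformation (VST), which was inverted to whole reads per gene. Tumors had 5105898 to 14800352 reads, with a median of 6590274, and chitin-containing 66cl4 groups were deeper (medians of 10250227 and 8985408 reads) than untreated (6064018) and anti-PD-1-treated 66cl4 tumors (6166518). In 4T1 the chitin-treated group was also deeper (8759930) than the untreated (6295440), anti-PD-1-treated (6164483) and combination groups (6504793). Levels are given below as normalized reads, that is reads corrected for depth with the DESeq2 size factors, and differences are given on the VST scale with their standard error (SE). On this scale the differences of genes with few reads are compressed towards 0. Of the 35 chains, 21 had more than 10 reads in all 39 tumors, 6 had 0 reads in at least 1 tumor and 5 had a median under 10 reads. All 35 had passed the filter on low reads of the study, and the chain with the fewest tumors above 10 reads had 10 such tumors. The epithelial marker list, with Epcam, Krt7 and Krt8, summed to 17462 to 64818 normalized reads in 4T1 tumors but to 3396 to 6188 in 66cl4 tumors. In 66cl4 tumors Epcam was at 40.1 ± 37.6 normalized reads (SD, n = 20). Krt8 made up most of the 66cl4 sum, at 4280 ± 663 normalized reads against 8440 ± 2930 in 4T1 (SD).

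Stretches of DNA from the RefSeq promoter table (build GRCm38.p6) are shown for some genes that the results below describe. They were not related to the expression of these genes. Col7a1 had the largest difference between models, Col3a1 was among the highest chains per kb in both models and Col10a1 had one of the largest differences in the opposite direction. For each, the 250 bases before the transcript start are printed, with capitals for matches on either strand to CCAAT, to the GC box GGGCGG or to the TATA box with the letters TATAAA. These lie at chr9:108953336-108953585 for Col7a1, chr1:45311288-45311537 for Col3a1 and chr10:34389731-34389980 for Col10a1, all on the plus strand. The last stretch, chr8:11312801-11312830, is the head-to-head border of Col4a1 (minus strand) and Col4a2 (plus strand), in which capitals mark the 22 bases that both annotated first exons cover.
Col7a1: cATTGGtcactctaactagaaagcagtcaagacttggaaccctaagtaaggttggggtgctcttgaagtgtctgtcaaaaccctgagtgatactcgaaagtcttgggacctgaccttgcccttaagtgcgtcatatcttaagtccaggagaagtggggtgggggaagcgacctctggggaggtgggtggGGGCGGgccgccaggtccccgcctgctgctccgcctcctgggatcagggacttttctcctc
Col3a1: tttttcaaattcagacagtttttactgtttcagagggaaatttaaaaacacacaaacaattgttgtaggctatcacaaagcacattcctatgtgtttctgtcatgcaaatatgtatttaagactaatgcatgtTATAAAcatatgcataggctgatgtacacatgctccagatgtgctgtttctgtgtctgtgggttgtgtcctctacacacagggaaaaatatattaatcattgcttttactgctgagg
Col10a1: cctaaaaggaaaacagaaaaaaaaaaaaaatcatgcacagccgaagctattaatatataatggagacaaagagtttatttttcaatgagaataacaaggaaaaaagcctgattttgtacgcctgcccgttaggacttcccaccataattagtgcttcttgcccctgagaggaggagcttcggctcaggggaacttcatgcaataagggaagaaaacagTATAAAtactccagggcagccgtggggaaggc
Col4a1/Col4a2: cggcAGTGCGCGGGCGGCGTCTCCAAgggg

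The Col7a1 stretch held 1 CCAAT match and 1 GC box, and the Col3a1 and Col10a1 stretches each held 1 TATA box and no other match. Over the 32 promoters found for 30 of the chains, 20 held GGGCGG (62.5%), against 32.7% of all 32851 promoters in the table. CCAAT was present in 11 of 32 (34.4%, against 33.8% of all) and TATAAA in 5 of 32 (15.6%, against 12.4% of all). No promoter was at hand for Col1a1, Col5a2, Col9a3, Col12a1 and Col14a1. These matches describe letters and are not shown binding sites.

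The first comparison asked how collagen chain expression differed between both tumor models. Collagen chains together took 1.4% ± 0.759 (SD, n = 19) of all reads in 4T1 tumors and 0.444% ± 0.0645 (SD, n = 20) in 66cl4 tumors. The range was 0.354% to 3.25% in 4T1 and 0.358% to 0.56% in 66cl4, so that the lowest 4T1 tumor lay below the lowest 66cl4 tumor. Fibrillar chains took 0.893% ± 0.626 against 0.176% ± 0.0586 of reads, basement membrane chains 0.248% ± 0.0782 against 0.142% ± 0.00971, and other chains 0.263% ± 0.107 against 0.126% ± 0.0236. In bulk tumors, fewer cells of a type and less RNA per cell cannot be told apart.

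**Figure D1:**
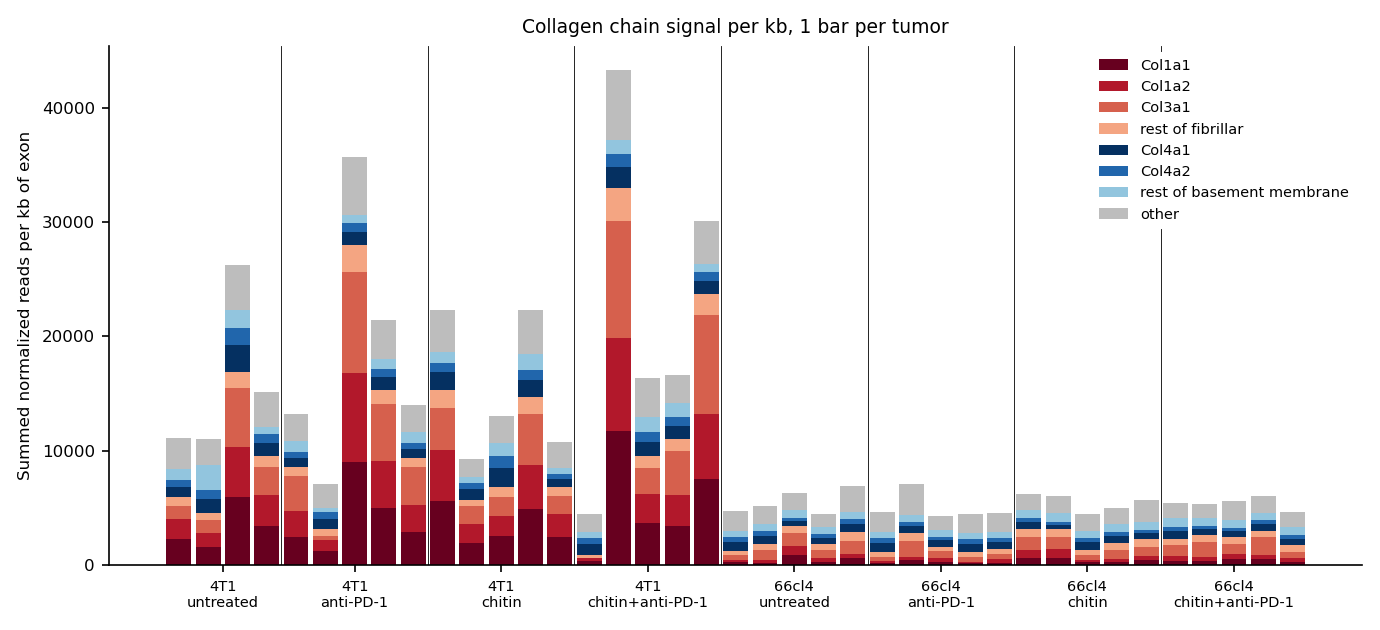
Summed normalized reads per kb of exon (y axis, linear) of the 35 collagen chains, with 1 stacked bar per tumor in the 8 groups (x axis) and colors for single chains or chain classes. 4T1 tumors differ widely in height, mostly through Col1a1, Col1a2 and Col3a1, and the first chitin + anti-PD-1-treated 4T1 tumor is as low as the 66cl4 tumors.

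Per kb of exon, which allows genes to be compared, Col1a1, Col3a1 and Col1a2 were the highest chains in 4T1 tumors, in this order, with 4104 ± 2872, 3608 ± 2901 and 3188 ± 2165 normalized reads per kb (SD, n = 19). Their means differed by less than their SDs. In 66cl4 tumors the order was Col3a1 with 850 ± 356, Col6a1 with 638 ± 268 and Col4a1 with 605 ± 107 normalized reads per kb (SD, n = 20), while Col1a2 and Col1a1 followed after Col18a1 with 377 ± 187 and 375 ± 194. These 3 also differed by less than the SD of the higher chain, and Col1a2 and Col1a1 lay within their SDs of each other. Fibrillar chains made up 61.1% ± 14.2 of the summed collagen signal per kb in 4T1 and 39.6% ± 8.84 in 66cl4, and basement membrane chains 19.9% ± 9.37 and 30.6% ± 5.15. The other chains made up 19.1% ± 5.7 in 4T1 and 29.8% ± 5.43 in 66cl4.

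Of the 35 chains, 26 were higher and 4 were lower in 4T1 than in 66cl4 tumors over all treatments (limma, Benjamini-Hochberg adjusted p below 0.05 over all genes). Over all 14318 genes, 40.8% passed as higher in 4T1 and 38.0% as higher in 66cl4. The median difference over the chains was 0.61, against 0.01 over all genes. By class, 9 of 10 fibrillar chains were higher and none lower (median difference 0.75), 4 of 6 basement membrane chains were higher and 1 lower (median 0.78), and 13 of 19 other chains were higher and 3 lower (median 0.52). Leaving out 1 tumor at a time, 29 to 31 chains passed.

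**Figure D2:**
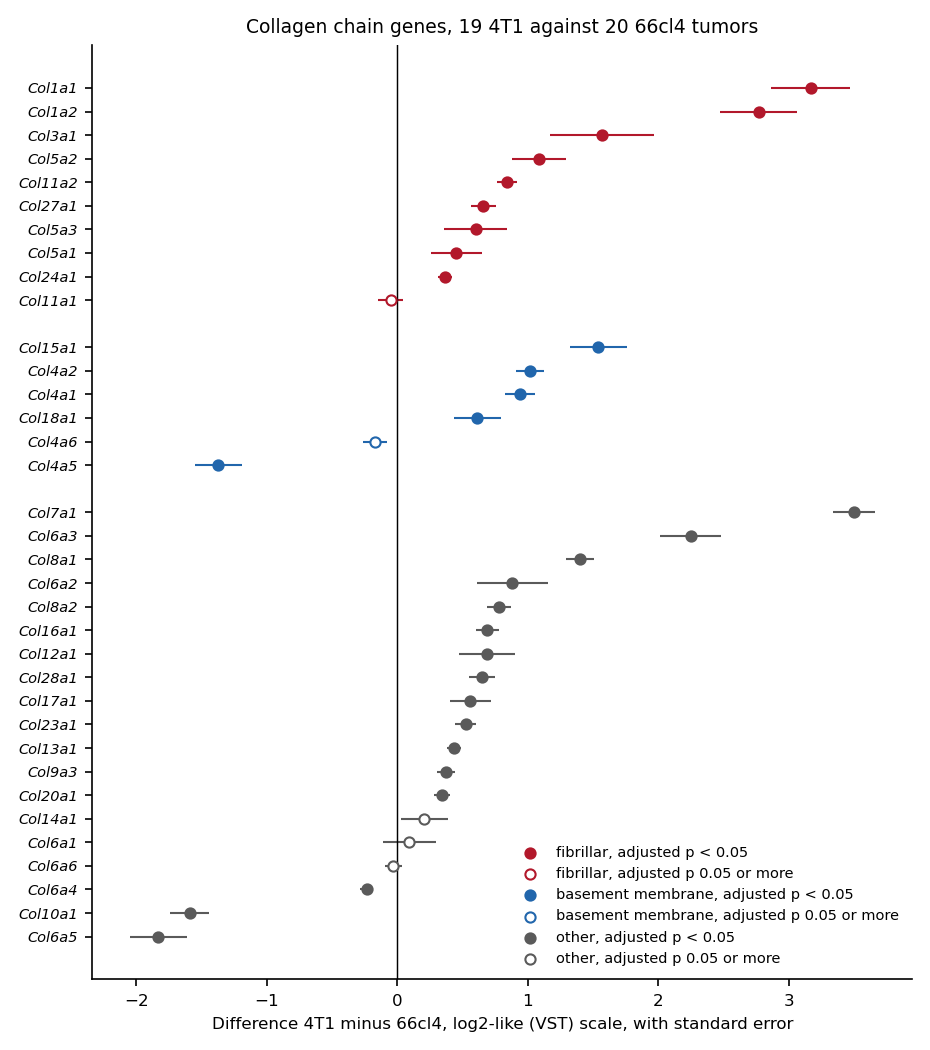
Difference between 4T1 and 66cl4 tumors (x axis, VST scale, bars are SE) for each of the 35 chains (y axis), sorted within fibrillar (red), basement membrane (blue) and other chains (grey), with filled points for an adjusted p below 0.05. Col7a1 and Col1a1 lie farthest to the right at 3.50 and 3.17, and Col6a5 and Col10a1 farthest to the left at -1.83 and -1.59.

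Among fibrillar chains, the type I pair moved most. Col1a1 (chr11:94936224-94953042) encodes the chain present in 2 copies in the type I triple helix and Col1a2 (chr6:4504814-4541544) its partner chain. Col1a1 ran from 1871 to 69645 normalized reads in 4T1 tumors with a median of 19985, and from 876 to 4967 with a median of 1828 in 66cl4 tumors. These ranges overlapped through a single 4T1 tumor, chitin + anti-PD-1-treated tumor 1 with 1871, whereas all other 4T1 tumors had at least 7505 normalized reads. The difference was 3.17 ± 0.304 (SE, adjusted p = 1.66e-11). Col1a2 ran from 1401 to 43540 normalized reads (median 13544) in 4T1 and from 725 to 4530 (median 1962) in 66cl4, a difference of 2.77 ± 0.296 (adjusted p = 2.06e-10).

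Col3a1 (chr1:45311538-45349706), the homotrimeric chain of type III collagen whose upstream stretch is shown above, ran from 394 to 56632 normalized reads in 4T1 (median 17304) and from 2051 to 8639 in 66cl4 (median 4589). The same 4T1 tumor was the lowest of all 39, and the ranges overlapped widely. The difference was 1.57 ± 0.397 (adjusted p = 0.000574), with the largest spread within groups of any chain (SD 1.30). Col5a1 and Col5a2, which encode chains of type V collagen that co-assembles with type I, differed by 0.45 ± 0.196 (adjusted p = 0.0347) and 1.09 ± 0.207 (adjusted p = 1.43e-05). Col5a1 had 846 to 9615 normalized reads in 4T1 and 1259 to 2599 in 66cl4, and its call was lost after quantile normalization and when any 1 of 7 tumors was left out. Per kb, the ratio of Col5a1 to Col5a2 was 0.669 ± 0.224 in 4T1 and 1.03 ± 0.123 in 66cl4.

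The chains that follow outside the rule for named genes are given to account for every member, with their values already seen. Col5a3, Col27a1, Col11a2 and Col24a1 were higher in 4T1 by 0.37 to 0.84, and of these Col11a2 had ranges that did not overlap (19.6 to 159 normalized reads in 4T1 and 3.52 to 12.5 in 66cl4). Col11a1, a chain of the cartilage-type collagen XI, was the fibrillar chain that did not pass (-0.05 ± 0.0974, adjusted p = 0.641), with 4.01 to 143 normalized reads in 4T1 and 19.3 to 88.0 in 66cl4. Both distributions were centred near each other, with medians of 28.1 and 32.1, but 4T1 tumors were more scattered.

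Among basement membrane chains, Col4a1 and Col4a2 encode the chains of the ubiquitous type IV heterotrimer and lie head to head on chromosome 8. Col4a1 ran from 4512 to 15326 normalized reads in 4T1 (median 7595) and from 2609 to 5140 in 66cl4 (median 4045), a difference of 0.94 ± 0.112 (adjusted p = 2.66e-09). Col4a2 differed by 1.02 ± 0.108 (adjusted p = 1.63e-10), with 2810 to 9449 and 1531 to 2892 normalized reads. The 4T1 and 66cl4 ranges of both chains overlapped at their edges. Col4a5, an X-chromosomal chain of the less widespread type IV network, differed in the opposite direction by -1.37 ± 0.183 (adjusted p = 3e-08), with 83.4 to 949 normalized reads in 4T1 and 515 to 1499 in 66cl4. Its neighbour Col4a6, which starts 1308 bases away in the opposite direction, was listed at 2.68 to 78.6 and 10.5 to 54.0 normalized reads and did not pass (-0.17 ± 0.0902, adjusted p = 0.0832).

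Col18a1, which carries the endostatin fragment, was higher in 4T1 by 0.61 ± 0.18 (adjusted p = 0.00239), with 1907 to 13330 against 1900 to 4027 normalized reads. Col15a1, its close relative, differed by 1.54 ± 0.218 (adjusted p = 9.25e-08), with 149 to 2869 against 185 to 555. For both, the lowest 4T1 tumors lay within or below the 66cl4 range.

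Among the other chains, Col7a1 (chr9:108953586-108984875), the chain of the anchoring fibrils that fasten basement membranes to the tissue below, had the largest difference of all chains. It ran from 860 to 6226 normalized reads in 4T1 (median 3574) and from 131 to 325 in 66cl4 (median 176), so that the ranges did not overlap. The difference was 3.50 ± 0.16 (adjusted p = 2.23e-20). Col8a1, a short network-forming chain of vessel walls, also had ranges apart, with 1348 to 5257 (median 3327) against 958 to 1216 (median 1093) normalized reads and a difference of 1.40 ± 0.105 (adjusted p = 2.9e-14). With Col11a2 and Col23a1, these were the 4 of 35 chains in which every 4T1 tumor exceeded every 66cl4 tumor, which was so for 9.87% of all genes. No chain had all 66cl4 tumors above all 4T1 tumors, which was so for 7.98% of all genes.

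**Figure D3:**
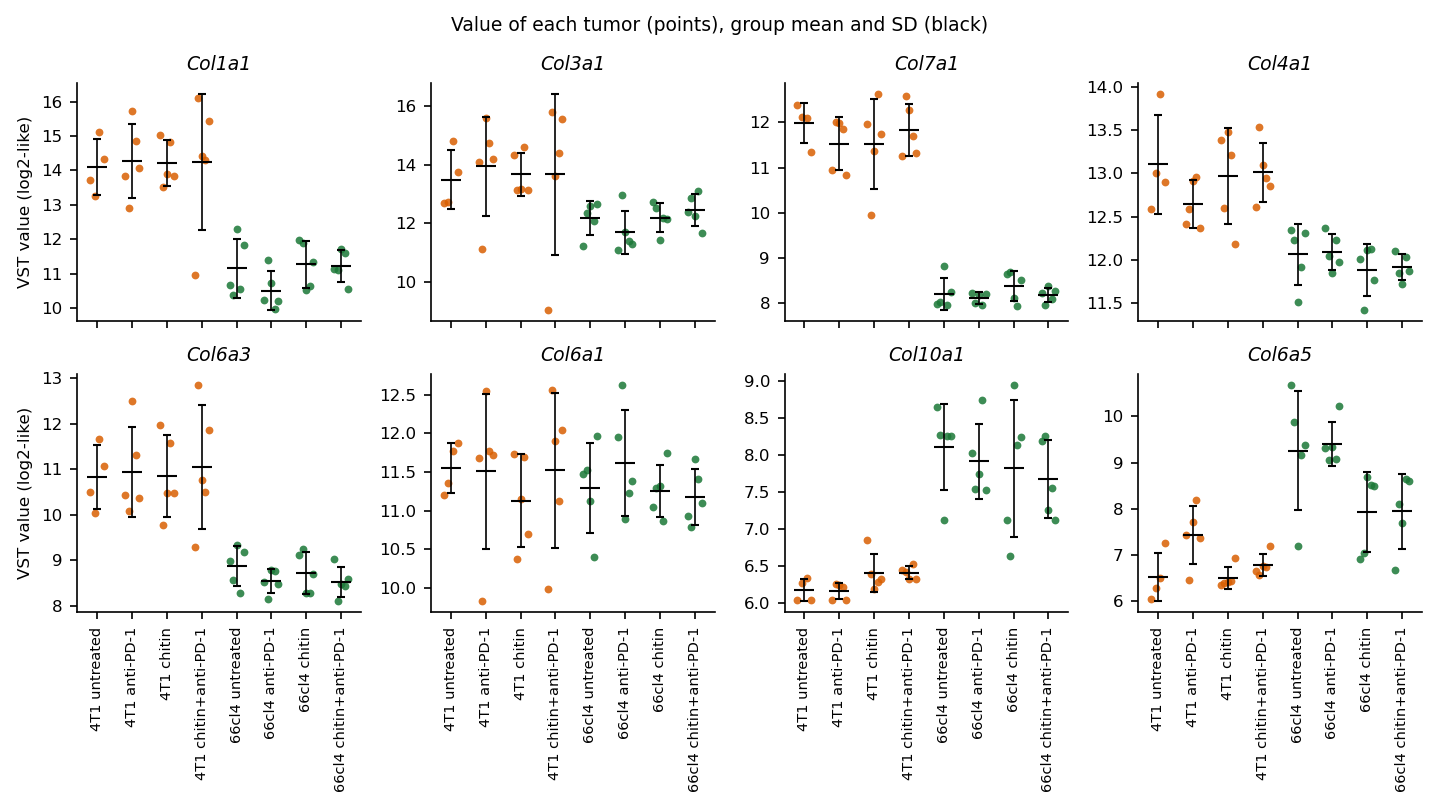
VST values (y axes, log2-like) of 8 chains in every tumor (points, 4T1 orange and 66cl4 green), with the mean and SD of each group in black. Col7a1 separates the models completely, Col1a1, Col3a1 and Col6a3 scatter widely within 4T1 groups, Col6a1 overlaps throughout, and Col10a1 and Col6a5 are higher in 66cl4.

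Type VI collagen is built from the chains of Col6a1, Col6a2 and one more chain, most often that of Col6a3, and these 3 genes did not move alike. Col6a3 had 496 to 7268 normalized reads in 4T1 (median 1328) and 158 to 521 in 66cl4 (median 263), a difference of 2.25 ± 0.234 (adjusted p = 1.18e-10). Col6a2 differed by 0.88 ± 0.273 (adjusted p = 0.00392), with 209 to 4867 and 392 to 2931 normalized reads. Col6a1 did not pass (0.09 ± 0.205, adjusted p = 0.682), with 782 to 5908 in 4T1 and 1217 to 6200 in 66cl4. Per kb, Col6a3 stood at 0.279 ± 0.107 of Col6a1 in 4T1 (range 0.139 to 0.465) and at 0.0486 ± 0.0223 in 66cl4 (range 0.0102 to 0.0934), so that this ratio did not overlap between the models.

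The remaining type VI chains, Col6a4, Col6a5 and Col6a6, lie next to each other on chromosome 9 and encode alternatives to the Col6a3 chain. Col6a5 (chr9:105856078-105960643) had 0 to 172 normalized reads in 4T1 (median 11.5) and 12.6 to 1518 in 66cl4 (median 285), a difference of -1.83 ± 0.22 (adjusted p = 3.12e-09). Its neighbour Col6a4 differed by -0.23 ± 0.0497 (adjusted p = 7.5e-05) at 0 to 19.6 and 5.64 to 16.6 normalized reads. Col6a6, at 1.56 to 55.0 and 3.79 to 42.2, did not pass (-0.03 ± 0.0656, adjusted p = 0.685). Col10a1, the chain of hypertrophic cartilage whose TATA box is shown above, had 0 to 20.9 normalized reads in 4T1, with 0 reads in 4 tumors, and 11.3 to 369 in 66cl4 (median 155). The difference was -1.59 ± 0.148 (adjusted p = 8.42e-12), and only the highest 4T1 tumor, chitin-treated tumor 1, reached into the 66cl4 range.

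The other 9 chains that were higher in 4T1, with their values already seen, were Col8a2, Col9a3, Col12a1, Col13a1, Col16a1, Col17a1, Col20a1, Col23a1 and Col28a1, with differences of 0.34 to 0.78. Most were low, and Col12a1 and Col16a1 were the exceptions with 1347 to 10734 and 772 to 2229 normalized reads in 4T1. Col17a1, a hemidesmosome chain of basal epithelium, reached 461 normalized reads in untreated 4T1 tumor 5 and 154 in anti-PD-1-treated 4T1 tumor 1. The basal and keratinocyte marker list summed to 10909 and 3540 normalized reads in these tumors, its 2 highest sums among all 39, and its part in the Col17a1 level was not tested. Col14a1, a fibril-associated chain, did not pass (0.21 ± 0.18, adjusted p = 0.291).

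In untreated tumors alone, with 4 4T1 against 5 66cl4 tumors, 19 chains were higher and 4 lower in 4T1, against 28.7% and 27.1% of all genes. Col7a1 (3.79 ± 0.333), Col1a1 (2.94 ± 0.635), Col1a2 (2.56 ± 0.619) and Col6a3 (1.95 ± 0.49) passed again, whereas Col3a1 (1.31 ± 0.83, adjusted p = 0.181) and Col4a5 (-0.78 ± 0.382, adjusted p = 0.0799) did not. Col6a5 (-2.74 ± 0.459), Col10a1 (-1.93 ± 0.31) and Col6a4 (-0.39 ± 0.104) passed as lower, joined by Col6a6 (-0.50 ± 0.137, adjusted p = 0.00239), the member of this cluster that did not pass over all treatments. Leaving out 1 tumor at a time gave 19 to 24 chains.

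Marker lists of other cell types were compared between the models as well, and their counts are to be read against the 40.8% of all genes that passed as higher and the 38.0% that passed as lower in 4T1. The fibroblast list summed to 2370 to 20006 normalized reads in 4T1 and 3628 to 6063 in 66cl4, and 7 of its 10 genes passed as higher and 3 as lower in 4T1. The higher genes were Postn, Fbn1, Mfap5, Thy1, Pi16, Dpt and Fap, of which Postn was the highest in 4T1 with 3650 ± 1900 normalized reads (SD). The lower genes were Pdgfra (-1.2), Pdgfrb (-1.08) and Pdpn (-0.859), so the list was split. Pericyte and smooth muscle genes summed to 1868 to 9438 and 1149 to 2194 (8 of 10 higher, none lower), and endothelial genes to 1103 to 6892 and 1632 to 2564 (8 of 10 higher, none lower). Epithelial genes were higher in 10 of 10. Leukocyte genes summed to 7902 to 28377 in 4T1 and 33241 to 64149 in 66cl4 (3 of 9 higher, 5 lower). Lyz2 made up the largest part of these sums, with means of 10400 ± 4960 in 4T1 and 37900 ± 6260 in 66cl4 (SD). Cd3e, S100a8 and S100a9 were higher in 4T1, and Ptprc, a gene of leukocytes in general, did not pass (-0.025 ± 0.116, limma adjusted p = 0.851). Sums reached 11844 and 4880 for skeletal muscle (9 of 10 higher), 16335 and 2874 for adipocytes (7 of 9 higher), 10909 and 304 for basal and keratinocyte genes (5 of 6 higher, 1 lower), 4902 and 1719 for lactating mammary epithelium (5 of 6 higher), 2185 and 310 for Schwann cells (6 of 8 higher, 1 lower), and 3032 and 517 for cartilage and bone (4 of 5 higher, 1 lower), as the highest 4T1 and 66cl4 tumors. In untreated tumors alone, 28.7% of all genes passed as higher and 27.1% as lower in 4T1. None of 9 adipocyte genes, none of 6 lactating epithelium genes and 1 of 10 skeletal muscle genes passed there (median differences of 0.19, 0.03 and 0.84). Of 10 fibroblast genes, 5 passed as higher and 3 as lower. Higher in the same comparison were 5 of 10 pericyte and smooth muscle, 5 of 10 endothelial and 10 of 10 epithelial genes, with none lower. No marker gene of the table was at 0 in most tumors, and the part of these cell types in the collagen differences was not tested.

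The genes that handle collagen were compared in the same way and against the same shares of all genes, 40.8% higher and 38.0% lower, with examples chosen after their values were seen. Of 20 genes for folding and modification of collagen, 11 were higher and 4 lower in 4T1 (median difference 0.20), with Serpinh1, the collagen chaperone HSP47, at 2.36 ± 0.092 and Fkbp10, a collagen-binding prolyl isomerase, at 1.49 ± 0.131, and the lysyl hydroxylase Plod1 at -0.70 ± 0.0802. Of 12 genes for procollagen processing and cross-linking, 6 were higher and 3 lower (median 0.89), and the lysyl oxidase family was split. Lox (2.88 ± 0.222) and Loxl2 (2.57 ± 0.188) were higher, Loxl1 (-0.91 ± 0.173) and Loxl3 (-0.23 ± 0.0604) were lower and Loxl4 did not pass (-0.02 ± 0.107). Pcolce, an enhancer of procollagen cleavage, was lower (-1.88 ± 0.101). Of 9 collagen receptor and uptake genes, 6 were higher and 3 lower (median 0.56), with the integrin Itga2 at 2.33 ± 0.125, the uptake receptor Mrc2 at -2.68 ± 0.165 and a further integrin, Itga10, at -2.61 ± 0.187.

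Of 9 small leucine-rich proteoglycans, which regulate fibril growth, 3 were higher and 4 lower (median 0.41), which is near the shares of all genes, with Ogn at -4.97 ± 0.164 and Bgn at 2.50 ± 0.223. Ogn stood at 58.8 ± 59.1 (SD, n = 19) normalized reads in 4T1 and 4540 ± 1360 (SD, n = 20) in 66cl4. Of 15 laminins and other basement membrane genes, 13 were higher and 1 lower (median 0.81), with the laminin chain Lamb3 at 3.49 ± 0.214.

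The next comparisons asked whether chitin, anti-PD-1 or both shifted collagen chains within a model. No chain passed in any of the 5 comparisons in 4T1 or the 5 in 66cl4, and 0% of all genes passed in each of them. Unadjusted p-values under 0.05 were seen for 0 to 4 chains per comparison, and for 367 to 2238 genes. In the chitin-containing groups against the others the median difference of the chains was 0.01 in 4T1 and 0.04 in 66cl4. Col1a1 had group means of 14.10 ± 0.80, 14.28 ± 1.07, 14.22 ± 0.66 and 14.25 ± 1.98 (VST, SD, n = 4, 5, 5 and 5) in 4T1 tumors that were untreated or received anti-PD-1, chitin or the combination, and of 11.16 ± 0.86, 10.52 ± 0.57, 11.28 ± 0.68 and 11.23 ± 0.46 (n = 5 each) in 66cl4. In 4T1 these means lay within 1 SD of each other, and in 66cl4 the anti-PD-1-treated mean was the lowest without passing (-0.64 ± 0.373 against untreated, unadjusted p = 0.1, adjusted p = 0.911).

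**Figure D4:**
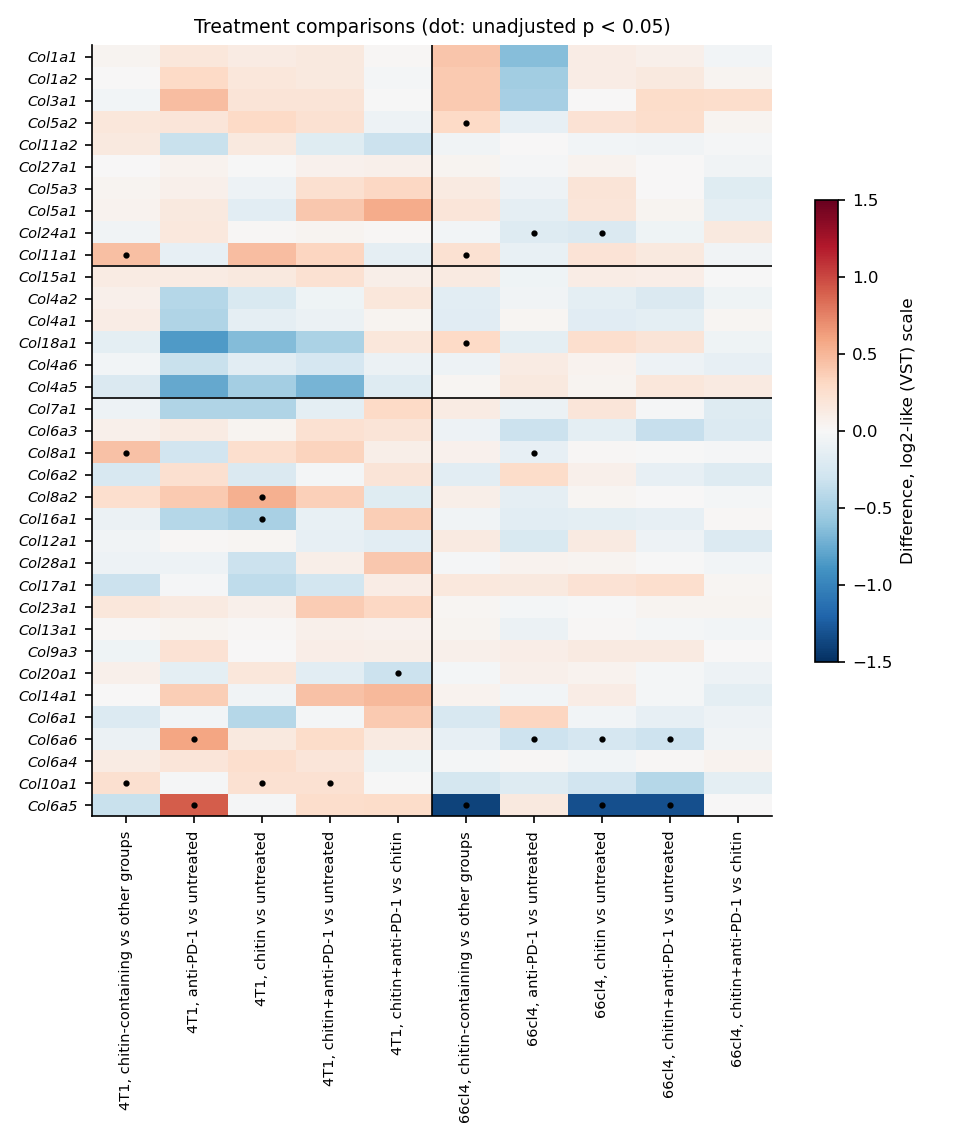
Differences on the VST scale (color, red higher in the first group and blue lower) for the 35 chains (rows, by class) in the 5 treatment comparisons of each model (columns), with dots where the unadjusted p was below 0.05. No cell passed an adjusted p of 0.05, and the darkest cells are those of Col6a5 in chitin-containing 66cl4 groups (-1.39, -1.32 and -1.32).

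In 66cl4, Col6a5 had the smallest unadjusted p of all chains in chitin-containing against other groups. Its normalized reads were 1518, 813, 44.0, 447 and 538 in untreated tumors and 513, 408, 525, 415 and 1063 in anti-PD-1-treated tumors. Chitin-treated tumors had 24.8, 33.0, 290, 245 and 241. Under the combination the values were 12.6, 156, 94.4, 280 and 267. All 10 chitin-containing tumors thus lay below all others but untreated tumor 3. The difference of -1.39 ± 0.363 had an unadjusted p of 0.00102 and an adjusted p of 0.113. Without untreated tumor 3 it was -1.65 with an adjusted p of 0.0195, with weights estimated for each tumor -1.56 with an adjusted p of 0.0331, and over the removal of each tumor in turn the adjusted p ran from 0.0195 to 0.218. At equal read depth the limma-voom difference was -2.10 on the log2 scale and did not pass. Untreated tumor 3 also had the highest skeletal muscle sum of its group, 4199 normalized reads against 105 to 242, whose part was not tested.

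Col11a1 followed in 66cl4 with 0.23 ± 0.0753 (unadjusted p = 0.00571, adjusted p = 0.164) and was second in 4T1 with 0.46 ± 0.177 (unadjusted p = 0.0188, adjusted p = 0.631). It had 16.2 to 143 normalized reads in chitin-treated and 4.91 to 118 in chitin + anti-PD-1-treated 4T1 tumors, against 10.9 to 34.6 in untreated and 4.01 to 28.2 in anti-PD-1-treated ones, so that the ranges overlapped. Col10a1 led in 4T1 with 0.24 ± 0.0739 (unadjusted p = 0.00467, adjusted p = 0.58), at 0.678 to 20.9 normalized reads in chitin-containing against 0 to 2.73 in other groups, which is a matter of a few reads per tumor in groups of unequal depth.

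Whether the chitin effect differed between 4T1 and 66cl4 was tested directly. No chain passed, against 0.0978% of all genes (14 genes). Col6a5 had the smallest unadjusted p (1.06 ± 0.44, adjusted p = 0.283 by limma), followed by Col8a1 (adjusted p = 0.463). With weights estimated for each tumor, Col8a1 passed with 0.60 ± 0.173 (adjusted p = 0.0282).

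Under anti-PD-1 alone in 4T1, with values already seen, Col6a6 and Col6a5 had the smallest unadjusted p (0.00146 and 0.00328, adjusted p = 0.517 for both). Col6a5 had 65.5, 5.35, 98.5, 172 and 59.2 normalized reads in anti-PD-1-treated and 0, 1.56, 6.38 and 48.5 in untreated 4T1 tumors. Both passed in limma with weights for each tumor (adjusted p = 0.0151 for Col6a5 and 0.0123 for Col6a6). They also passed without anti-PD-1-treated tumor 2 (adjusted p = 0.0363 and 0.037), which had the lowest value of its group for both chains. Leaving out such a tumor raises the group mean by itself, and neither chain passed when any other tumor was left out. The adipocyte list summed to 16335, 223, 3271, 9212 and 6158 normalized reads in these anti-PD-1-treated tumors and to 360 to 1575 in untreated ones, and 7 of its 9 genes had an unadjusted p under 0.05. The lactating mammary epithelium list summed to 2640 to 4902 against 561 to 3309, with 5 of 6 genes under that value. The part of both in the Col6a5 and Col6a6 values was not tested.

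Most of the variation of collagen chains lay between the models or between tumors of a group. The models took a median of 52.8% of the sum of squares of a chain, treatments within models 5.82% and tumors within groups 40.3%. The chains with the largest treatment share, chosen after their values were seen, were Col6a6 (47.2%), Col11a1 (31.1%) and Col6a5 (20.6%). The median SD within groups was 0.48 for the chains and 0.16 for all genes.

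Partner chains of the same heterotrimer were compared tumor by tumor, after the mean of each group had been removed, in 7 pairs with permutation tests that shuffled tumors within groups (100000 resamples, two-sided, Benjamini-Hochberg adjusted over the 7 pairs). Col1a1 and Col1a2 had r = 0.953 and rho = 0.91 over 39 tumors, Col4a1 and Col4a2 r = 0.976 and rho = 0.96, Col5a1 and Col5a2 r = 0.9 and rho = 0.812, and Col6a1 and Col6a2 r = 0.908 and rho = 0.864. Col4a5 and Col4a6 had r = 0.843 and rho = 0.831. For each of these 5 pairs the permutation p of r and rho was 1e-05, the smallest that these resamples can give, and adjusted p was also 1e-05. Without the 2 tumors farthest from the median of the first chain, r was 0.916, 0.968, 0.834, 0.86 and 0.831. The tests asked only whether partners vary together at all. Some chains of different heterotrimers reached similar r, such as Col1a1 with Col3a1 (0.914) and Col1a2 with Col15a1 (0.912). Others were far lower, such as Col1a1 with Col4a1 (0.305). A high r is thus not particular to partner chains.

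**Figure D5:**
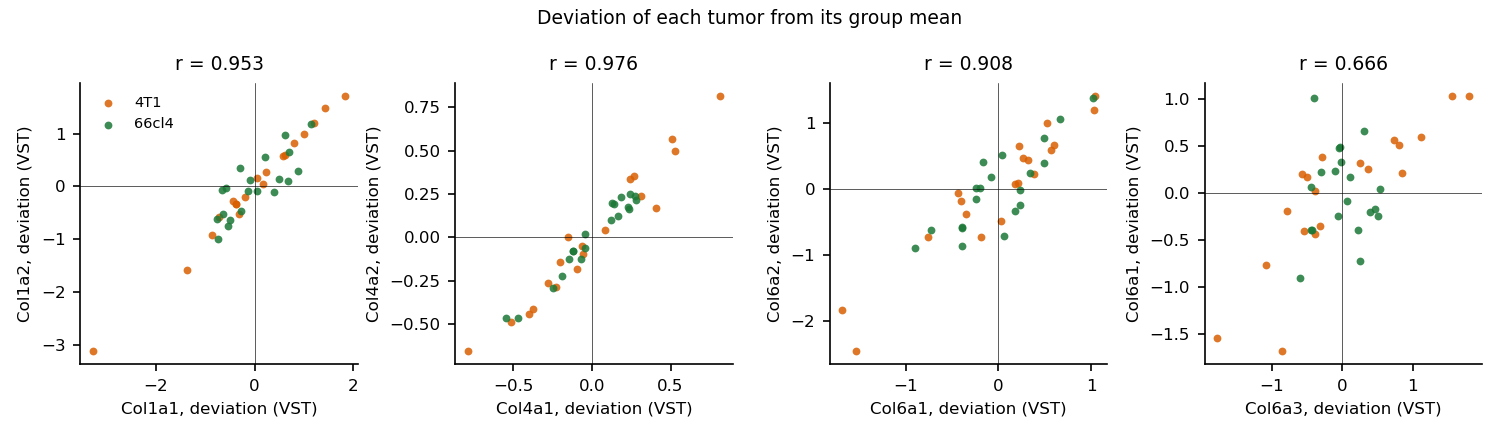
Deviation of each tumor from its group mean on the VST scale for 4 pairs of chains (x and y axes), with 4T1 tumors in orange and 66cl4 tumors in green and Pearson's r over 39 tumors above each panel. Col1a1 with Col1a2 and Col4a1 with Col4a2 lie along a line in both models, whereas Col6a3 with Col6a1 does so among 4T1 tumors and forms a cloud among 66cl4 tumors.

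Col6a3 followed its partners less closely. With Col6a1 it had r = 0.666 and rho = 0.581 (permutation p = 0.00051 and 0.00093, adjusted p = 0.00051 and 0.00093), and with Col6a2 r = 0.755 and rho = 0.719 (permutation p = 2e-05, adjusted p = 2.33e-05). Without 2 tumors these r values were 0.541 and 0.649. Within models, Col6a3 and Col6a1 had r = 0.849 in the 19 4T1 tumors and 0.00772 in the 20 66cl4 tumors, and Col6a1 and Col6a2 0.949 and 0.817, given as descriptions whose difference was not tested.

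The ratio of partner chains per kb was narrow for type IV, with Col4a1 at 1.61 ± 0.126 times Col4a2 in 4T1 and 1.72 ± 0.0841 times in 66cl4. Col1a1 stood at 1.28 ± 0.109 times Col1a2 in 4T1 and 1.01 ± 0.271 times in 66cl4. Col6a1 stood at 2.41 ± 1.06 and 4.35 ± 1.34 times Col6a2.

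Over all pairs of the 7 fibrillar chains with more than 10 reads in every tumor, the median r within groups was 0.824 (21 pairs, 0.603 to 0.953), as a description of 39 tumors that share library and depth between genes. Fibrillar with basement membrane chains had a median of 0.278 (35 pairs, -0.505 to 0.912), in which Col15a1 was at the upper end (0.912 with Col1a2) and Col4a5 at the lower end (-0.505 with Col5a3). Among basement membrane chains the median was 0.19 (10 pairs). The non-collagen genes most like the mean of the 9 fibrillar chains with reads in every tumor were Lox (r = 0.952), Fstl1 (0.945), Aebp1 (0.944), Cercam (0.944) and Gpr153 (0.94), out of all other genes and over the same 39 tumors.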

How the data were processed

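Per the labels and methods of the study, stranded paired-end reads were aligned to mm10 with HISAT2 and counted per gene by strand, genes with over 10 reads in at least 10% of cases were kept, and the authors deposited log2-like VST values made with DESeq2. Versions and the annotation are not given in the sources used here. The VST was inverted here, and 100% of values came out whole within 0.001 reads. Positions and exon lengths came from GENCODE M21 and promoters from RefSeq. Of 40 samples in the labels, untreated 4T1 tumor 3 was removed by the study for RNA degradation.

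All 14318 genes were fitted on the deposited VST values with limma 3.58.1 (R 4.3.3, empirical Bayes with a mean-variance trend) by group, in 13 comparisons, with Benjamini-Hochberg adjustment over all genes and a threshold of 0.05. The fit was also run on simulated data, with far fewer changed genes than pass between the models and none of them low. That run therefore says little about the comparison of the models or about chains with few reads. Models were compared over all 39 tumors, and treatments within a model. Tumors are taken as separate animals, though the labels do not name the animals, and inter-tumor spread is the error throughout. Named chains were the 2 highest per kb in each class, the 4 largest rises and 4 largest falls between models, the 2 smallest p-values per chitin comparison and the partner chains of heterotrimers. The members, the pathway lists and the marker lists were chosen with earlier results of these data known. Alternatives were filters, scalings, weights, limma-voom on recovered reads, a replicate block and leaving out each tumor. Deviations from the group means had a mean r of 0.0101 in 4T1 and 0.0618 in 66cl4 between same-numbered tumors of different groups. Between other-numbered tumors it was -0.000571 and -0.0145. The numbers were not taken as pairs, though a mean r cannot exclude a link between some same-numbered tumors. Fits with the number as a block are given below. The values of 1 gene of the pathway lists are not reported here.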

Additional observations from a re-analysis of the deposited data

Results flagged for a closer look

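In 8 of 152 sets of 4 or 5 tumors (each named chain and each collagen share per group), 1 tumor stood apart from the rest of its group by Dixon's test at the 95% level, where chance gives about 1 in 20. The test was run on VST values for the chains and on percent of reads for the collagen share. The chain values printed here are normalized reads, on which the test was not run. Col5a1 was 4096 in untreated 4T1 tumor 4 against 1973 to 2141 in the other tumors of its group. Col6a5 was 24.9 in chitin-treated 4T1 tumor 5 against 2.84 to 4.73, and 1063 in anti-PD-1-treated 66cl4 tumor 5 against 408 to 525. Col10a1 was 37.8 in untreated 66cl4 tumor 3 against 187 to 279. Col6a4 was 5.64 in chitin-treated 66cl4 tumor 2 against 8.41 to 9.45, and Col8a1 was 965 in chitin-treated 66cl4 tumor 3 against 1140 to 1189. In anti-PD-1-treated 66cl4 tumor 2, Col5a2 was 1930 against 1010 to 1193, and collagen chains took 0.56% of reads against 0.358% to 0.396%.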

How the results depend on the processing

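No result reversed. Of the 30 chains that passed between models over all treatments, 29 passed under all of 46 alternatives, with Col5a1 the exception, and of 23 in untreated tumors 16 passed under all of 47. These numbers leave out the filter and the minimum difference given next. Leaving out 1 tumor gave 29 to 31 and 19 to 24 chains, and 11166 to 11394 and 7406 to 8217 genes. Without the 25% of genes with the lowest mean, 18 and 12 of the 20 chains still tested passed, and a minimum difference of 1 left 12 and 12 chains (1331 and 1414 genes). The lower counts of both follow from fewer genes tested or a stricter criterion.

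Chitin-containing against other groups called 297 genes in 4T1 and 185 (1 chain, Col6a5) in 66cl4 with array weights, 58 and 1 with both models in 1 fit, 1 in 4T1 with limma-voom at equal depth, and 6 in 66cl4 after the filter. Leaving out 1 tumor gave 0 to 1 genes and 0 chains in 4T1, and 0 to 269 genes and 0 to 1 chains in 66cl4, with the most without untreated tumor 3. Anti-PD-1 against untreated in 4T1 called 960 genes (2 chains) with array weights, 60 (1 chain) with both models in 1 fit, and 0 to 80 (0 to 2 chains) leaving out 1 tumor, with the most without anti-PD-1-treated tumor 2. Chitin + anti-PD-1 in 4T1 called 3 genes against untreated and 5 against chitin with both models in 1 fit, and 0 to 2 against chitin leaving out 1 tumor. In 66cl4, leaving out 1 tumor gave 0 to 25 genes for chitin and 0 to 3 for chitin + anti-PD-1 against untreated, and the compared groups alone gave 1 for chitin + anti-PD-1 against chitin.

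The difference in chitin effect called 14 genes, and 8 after the filter, 39 with quantile normalization, 1004 (1 chain, Col8a1) with array weights, 3 with limma-voom at equal depth, 2 at a minimum difference of 1, and 0 to 677 leaving out 1 tumor, with the most without anti-PD-1-treated 4T1 tumor 2. With the replicate number as a block, 104 genes passed in this comparison, 1 for chitin + anti-PD-1 against untreated in 4T1, and in 66cl4 16 for chitin-containing groups, 2 for chitin and 7 for chitin + anti-PD-1. The cause of these changes was not tested. For the 5 chains with a median under 10 reads, depth limits what can be detected.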
